A study of Mus musculus with 6 samples.

Results

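NF-kB is a family of transcription factors that carries inflammatory signals to the nucleus, and 10 of its subunits, inhibitors and known target genes were examined in mouse colonic mucosa, in arrays labelled p38a knockout and in wild type. The genes are Nfkb1, Nfkb2, Rela and Relb (subunits), Nfkbia, Nfkbie, Nfkbiz and Tnfaip3 (inhibitors and feedback regulators), and Tnfaip2 and Icam1 (inducible genes). Members were all probe sets of the Affymetrix array whose platform gene symbol is one of these names. They covered 9 of the 10 genes, of 18193 named on the array, with 20 probe sets among 45101. Nfkb1 was not analysed here. Of the 20 probe sets 19 passed the filter on low signal. The study has 6 arrays: 3 carry the label p38a knockout (Mapk14 encodes p38a, a kinase of the stress response) and 3 the label wild type, with letters A to C in either group, and values of a group are given in that order. All samples carry the strain name C57BL/6, are named as intestinal epithelial cells from colonic mucosa, and were untreated. The labels name no promoter or Cre line for the knockout, no age and no sex. Whether they came from separate animals is not stated, so p-values measure the spread between these samples alone, and that spread may be technical.

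In resting cells NF-kB dimers are held in the cytoplasm by inhibitor proteins of the IkB family. Cytokines such as tumour necrosis factor and bacterial products activate the IKK kinase complex, which marks the inhibitors for destruction, and the freed dimers switch on their targets. Several targets are the pathway's own brakes, so their mRNA can rise when the pathway is active. The activity of the pathway itself was not measured here. In the intestine the pathway is known for epithelial survival and for the production of chemokines, and p38 kinases act beside it downstream of the same receptors.

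The upstream sequences of 7 of the 9 genes are listed by RefSeq (build GRCm38.p6), and the 250 bases before the start were searched on both strands for the kappa-B consensus, the motif that NF-kB dimers bind, whose matches may overlap. It was found upstream of 5 of these 7 genes (Nfkb2, Nfkbia, Nfkbie, Tnfaip2 and Tnfaip3), and upstream of 8.23% of all 27025 genes listed. The window of Rela and Icam1 held no match, which says only that these letters are not in it. The sequences of Nfkbia, Tnfaip3 and Nfkb2 follow on the strand of the gene, with matches in capitals, because these members are known to be induced by the pathway itself and 2 of them, Nfkbia and Tnfaip3, had the most alike patterns over the arrays. Of the several starts listed for Tnfaip3 and Nfkb2 the first is shown. A match is a description of the letters and shows no binding. Nfkbia, minus strand, chr12:55492648-55492897, has its match at positions -29 to -20 from the start. Tnfaip3, minus strand, chr10:19015411-19015660, has matches at -125 to -116 and at -12 to -3. Nfkb2, plus strand, chr19:46304487-46304736, has overlapping matches from -39 to -29 and another at -11 to -2.
Nfkbia: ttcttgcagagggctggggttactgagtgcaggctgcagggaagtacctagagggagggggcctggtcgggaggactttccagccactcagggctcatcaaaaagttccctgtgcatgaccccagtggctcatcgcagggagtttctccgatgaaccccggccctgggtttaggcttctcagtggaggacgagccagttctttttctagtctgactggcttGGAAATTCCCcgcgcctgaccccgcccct
Tnfaip3: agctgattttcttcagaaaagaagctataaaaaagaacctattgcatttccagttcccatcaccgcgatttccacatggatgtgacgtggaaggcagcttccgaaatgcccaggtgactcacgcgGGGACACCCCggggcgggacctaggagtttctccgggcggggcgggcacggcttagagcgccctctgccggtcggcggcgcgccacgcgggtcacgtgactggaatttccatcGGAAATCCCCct
Nfkb2: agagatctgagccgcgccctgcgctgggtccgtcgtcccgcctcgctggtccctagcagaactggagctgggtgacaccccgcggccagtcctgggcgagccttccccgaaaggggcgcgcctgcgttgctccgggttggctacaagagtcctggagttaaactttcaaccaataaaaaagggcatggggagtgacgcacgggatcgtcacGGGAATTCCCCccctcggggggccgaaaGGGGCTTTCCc

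The arrays were not equally bright, and brightness moved with the genotype label. Deposited signals had a trimmed mean of 192 to 222 in the arrays labelled knockout and of 117 to 188 in wild type. The Gapdh ratio (3' over 5' control probe set, higher in degraded RNA) was 0.907, 0.954 and 0.859 in the arrays labelled knockout, against 1.10, 0.989 and 1.45 in wild type. Wild type A and C were dimmer than wild type B (trimmed means of 141 and 117, against 188) and had higher Gapdh ratios. On that ratio wild type A lay nearer to B than to C. Every array labelled knockout had a lower ratio than every wild-type array, so an adjustment for it cannot be cleanly separated from the label. Results are given below against wild type B alone too. The brightest probe set of the targeted gene, Mapk14, went against the label. It averaged 9.79 ± 0.11 in the arrays labelled knockout and 9.37 ± 0.06 in wild type (SD, n = 3 each, limma adjusted p = 0.915). On every other probe set of Mapk14 the groups overlapped, with differences of the group means from -0.06 to 0.62. Whether the probe sets lie in the deleted part was not analysed here. For that reason the samples are called the arrays labelled knockout throughout. Markers of the named cell type were present, with 10 of 10 epithelial genes above the filter described below. Their summed signal was 69179 to 76373 in the arrays labelled knockout and 68577 to 75081 in wild type. Markers of other cell types passed that filter too, at lower sums. Among them were 6 of 7 B and plasma cell genes and 6 of 7 fibroblast genes with a probe set. The filter alone does not tell cell types apart.

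Values are log2(signal + 16) after quantile normalization, a scale that understates the change of dim genes, and a difference is the mean of the arrays labelled knockout minus the mean of wild type. In these bulk samples, fewer cells of a type and less RNA per cell cannot be told apart. No member passed the test: limma called 0 of the 19 tested probe sets at an adjusted p of 0.05, as it did 0% of all 27002. Before adjustment 1 of the 19 had a p under 0.05, which is 5.26% of them, against 3.53% of all probe sets tested. Of the 20 probe sets 17 had a difference below 0 and 3 above 0, whereas 46.4% of all probe sets tested lay below 0. The median difference was -0.33 over the 20 member probe sets and 0.02 over all probe sets tested. The groups did not overlap for 2 of the 20 probe sets, 1 of Relb and 1 of Nfkb2, in each case with the arrays labelled knockout lower, where 4% of all probe sets tested were lower and 4.75% higher without overlap. That separation depended on the scaling: on the signals as deposited the groups overlapped for both, and with arrays centred on their medians they overlapped for the Nfkb2 probe set. Probe sets of 1 gene read transcripts of the same gene and are not independent of each other.

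**Figure D1:**
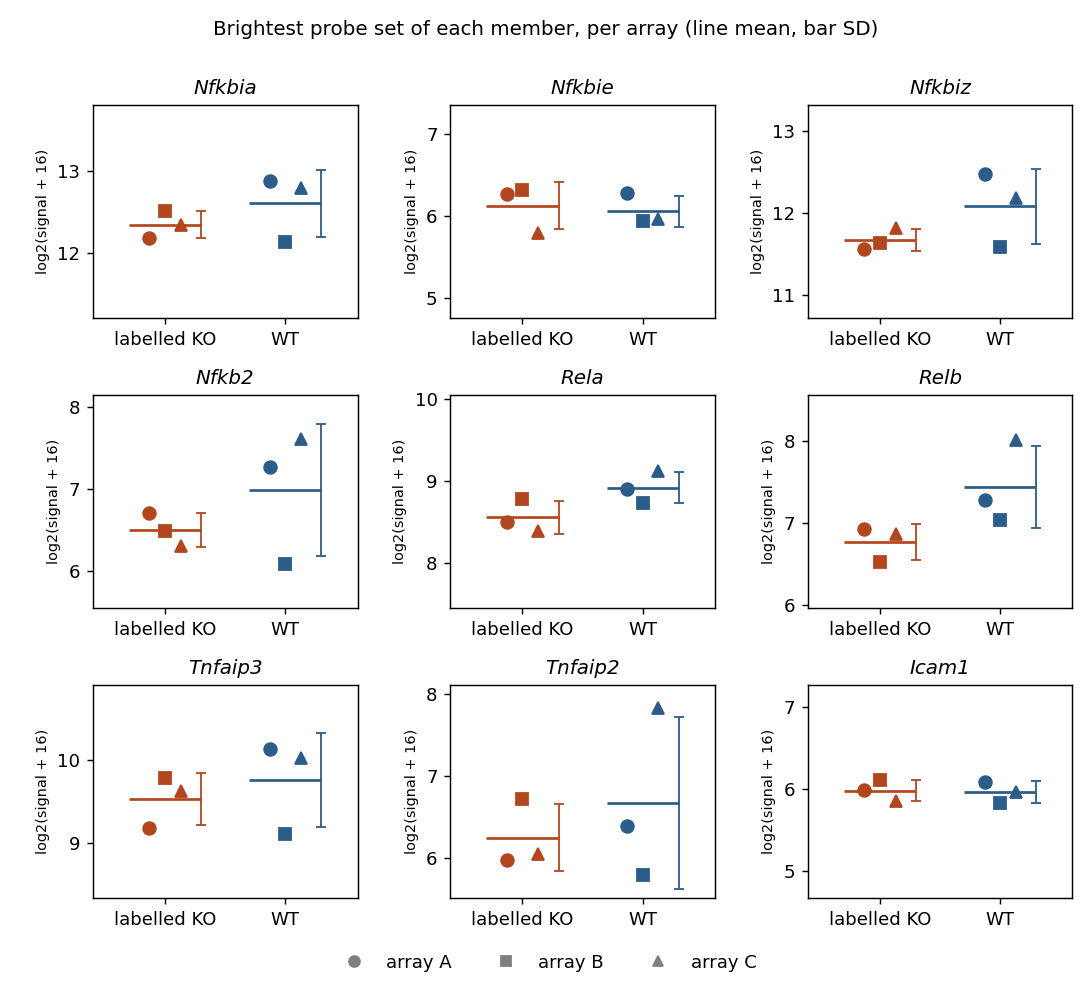
Signal of the brightest probe set of 9 genes, as log2(signal + 16) after quantile normalization, with 1 point per array, the array letter as its shape, the group mean as a line and the SD as a bar (n = 3 each). Wild type B is the lowest wild-type array in all 9 panels, and Relb is the only panel in which the groups do not overlap.

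The signal-dependent inhibitor Nfkbia, which encodes IkB-alpha, the protein that holds NF-kB in the cytoplasm, is read by 5 probe sets. Its brightest probe set gave 12.19, 12.52 and 12.34 in the arrays labelled knockout, against 12.88, 12.14 and 12.80 in wild type. Wild type A and C were the highest arrays and wild type B the lowest of all 6, so the groups overlapped. The mean was 12.35 ± 0.16 in the arrays labelled knockout and 12.61 ± 0.41 in wild type (SD, n = 3 each), a difference of -0.26 (SE 0.20, limma adjusted p = 0.915). Its 95% interval ran from -0.71 to 0.20. The other 4 probe sets gave differences from -0.39 to -0.20, and over the 6 arrays the 5 probe sets correlated with each other at r = 0.873 to 0.997. The dimmest of them gave 7.53, 7.77 and 7.64 in the arrays labelled knockout, against 8.25, 7.25 and 8.60 in wild type, again with wild type A and C highest and wild type B lowest. Against wild type A alone the brightest probe set stood at -0.54, against wild type C at -0.45 and against wild type B at 0.21. On the signals as deposited, before any scaling, it read 5617, 6436 and 5819 in the arrays labelled knockout and 6334, 4958 and 5321 in wild type.

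Tnfaip3 encodes A20, a ubiquitin-editing enzyme that ends signalling upstream of IKK and, like Nfkbia, is induced by the pathway it restrains. Its brighter probe set gave 9.17, 9.79 and 9.62 in the arrays labelled knockout, against 10.14, 9.10 and 10.03 in wild type. The order of the arrays was like that of Nfkbia, with wild type A and C on top and wild type B at the bottom. The difference was -0.23 (SE 0.29, limma adjusted p = 0.918), with a 95% interval from -0.90 to 0.44. Against wild type B alone it was 0.43. The dimmer probe set gave 5.71, 5.75 and 5.71 in the arrays labelled knockout, against 6.16, 5.64 and 5.22 in wild type. There wild type C was the lowest array, not among the highest, and the 2 probe sets correlated at r = 0.12 over the 6 arrays.

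Nfkbiz encodes IkB-zeta, an atypical nuclear IkB protein that is itself induced and that helps NF-kB at secondary targets. Its brightest probe set gave 11.56, 11.64 and 11.82 in the arrays labelled knockout, against 12.48, 11.58 and 12.18 in wild type. All 3 arrays labelled knockout lay below wild type A and C, and wild type B lay among them. The difference was -0.41 (SE 0.22, limma adjusted p = 0.915), with a 95% interval from -0.90 to 0.08, and it was 0.09 against wild type B alone. The second probe set gave 8.79, 8.75 and 9.13 in the arrays labelled knockout, against 9.47, 8.69 and 9.06 in wild type, with a difference of -0.18, and the third stood at -0.43. In the dimmest set the array labelled knockout A, at 7.80, lay apart from B and C, at 8.81 and 9.15. Nfkbie, which encodes IkB-epsilon, a slower feedback inhibitor, gave 6.27, 6.32 and 5.80 in the arrays labelled knockout on its brighter probe set, against 6.28, 5.95 and 5.96 in wild type. The groups overlapped. The difference was 0.07 (SE 0.22), with a limma adjusted p of 0.970, and -0.30 on the other probe set, which gave 5.41, 4.96 and 5.17 in the arrays labelled knockout and 5.57, 5.30 and 5.57 in wild type. The 2 Nfkbie probe sets did not move together over the 6 arrays (r = -0.02).

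Relb had the smallest p of the members. It encodes a subunit that pairs mainly with the p52 product of Nfkb2 in the non-canonical pathway and is a target of canonical NF-kB. Its single probe set gave 6.93, 6.52 and 6.87 in the arrays labelled knockout, against 7.28, 7.04 and 8.01 in wild type. Each array labelled knockout lay below each wild-type array, and wild type C lay far above the other two. The mean was 6.77 ± 0.22 in the arrays labelled knockout and 7.44 ± 0.50 in wild type (SD, n = 3 each), which is 1.59-fold lower. The difference was -0.67 (SE 0.28), with an unadjusted p of 0.0402 and a limma adjusted p of 0.915, so Relb did not pass. Without wild type C the difference was -0.39, and against wild type B alone it was -0.27. Among the brightest probe sets of the 9 genes, that of Relb alone kept the sign of its difference under all 19 alternative settings. Other probe sets were not followed through all of them. Settings that change only the filter, the probe sets per gene, the variance prior or the replicate block leave the difference itself unchanged, at -0.67. On the signals as deposited Relb stood at -0.21 and the groups overlapped (128, 85.7 and 120 in the arrays labelled knockout, against 111, 119 and 163 in wild type).

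Nfkb2 encodes the p100 precursor of p52, which is also an inhibitor of other subunits. Its brighter probe set, whose suffix marks possible cross-hybridisation with related transcripts, gave 6.71, 6.49 and 6.30 in the arrays labelled knockout, against 7.26, 6.08 and 7.61 in wild type. Wild type B was below all other arrays and wild type A and C above them, with a difference of -0.49 (SE 0.37, limma adjusted p = 0.915). The dimmer probe set gave 5.98, 5.27 and 5.60 in the arrays labelled knockout, against 6.17, 6.03 and 6.00 in wild type. There the wild-type arrays were close together and the groups did not overlap, with a difference of -0.44 (SE 0.23, limma adjusted p = 0.915). The gap between the groups was small, since wild type C and the array labelled knockout A read nearly the same. The 2 probe sets differed in wild type B: against that array alone the brighter stood at 0.42 and the dimmer at -0.41.

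Rela encodes p65, the main activating subunit of the canonical pathway, which is regulated chiefly by where the protein is and less by its mRNA. Its probe set gave 8.50, 8.78 and 8.38 in the arrays labelled knockout, against 8.90, 8.74 and 9.12 in wild type. The array labelled knockout B reached just above wild type B, and otherwise the groups were apart. The difference was -0.36 (SE 0.19, limma adjusted p = 0.915), with a 95% interval from -0.79 to 0.07. It was -0.18 against wild type B alone and -0.075 with the Gapdh ratio as covariate.

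Among the inducible genes, Tnfaip2, which encodes a TNF-induced protein linked to actin-based cell protrusions, varied most between wild-type arrays. Its brightest probe set gave 5.98, 6.72 and 6.04 in the arrays labelled knockout, against 6.38, 5.79 and 7.83 in wild type. The suffix of that probe set, too, marks possible cross-hybridisation. Wild type C stood above every other array, and wild type B was the lowest. The difference was -0.42 (SE 0.48, limma adjusted p = 0.916), and without wild type C it was 0.16. The second probe set gave 5.46, 5.82 and 5.27 in the arrays labelled knockout, against 5.46, 5.68 and 6.79 in wild type, with a difference of -0.46. The third, at -0.57, lay below the filter on low signal and was not tested. On both, wild type C was again the highest array, at 5.80 on the third. Icam1, which encodes an adhesion molecule that binds leukocytes, gave 5.98, 6.10 and 5.84 in the arrays labelled knockout, against 6.08, 5.83 and 5.96 in wild type. The groups overlapped and the difference was 0.02 (SE 0.19, limma adjusted p = 0.991). Its 95% interval, from -0.42 to 0.46, leaves room for a change of either sign. On the signals as deposited it stood at 0.32 with the groups apart, below the median of all probe sets in that setting.

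**Figure D2:**
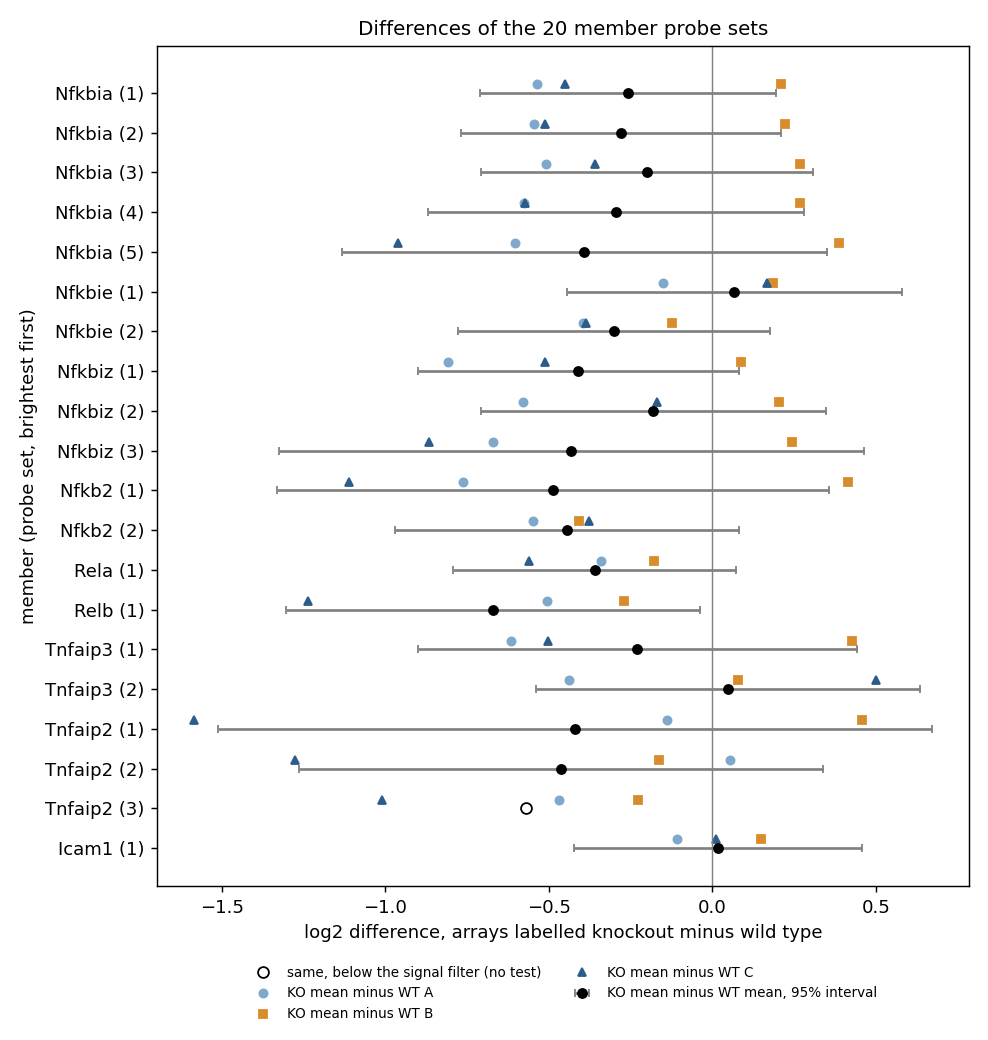
Log2 difference of each of the 20 member probe sets, with the mean of the arrays labelled knockout minus the wild-type mean as black points with 95% intervals (the probe set below the filter is open, with no interval) and the same mean minus wild type A, B or C alone as coloured marks. The marks for wild type B lie to the right of 0 for 14 probe sets, and those for wild type A to the left of 0 for 19.

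Set against single wild-type arrays, most member probe sets stood below A and C and not below B. The mean of the arrays labelled knockout lay below wild type A in 19 of the 20 probe sets, below wild type C in 17 and below wild type B in 6. Over all probe sets tested these shares were 47.4%, 47.7% and 51.9%. Wild type B was the lowest of the 3 wild-type arrays in 17 of the 20, against 35.8% of all probe sets tested. The median difference of the 20 was -0.52 against wild type A, -0.51 against wild type C and 0.20 against wild type B. The 6 that also lay below wild type B were those of Rela and Relb, 1 of Nfkb2, 1 of Nfkbie and 2 of Tnfaip2. Of the other 14, the brighter probe set of Nfkbie, the dimmer of Tnfaip3 and that of Icam1 had group differences above 0. In the remaining 11 the lower mean rested on wild type A and C, the arrays with the highest Gapdh ratios and the dimmest signals, and the part of RNA quality in it was not tested. Over the 6 arrays, the genes whose pattern was most like that of Nfkbia were Lama5 (r = 0.996), Mink1, Adm, Ssh1 and Npc1 (r = 0.991 each). Among the members, Tnfaip3 stood nearest to Nfkbia (r = 0.97), then Nfkbiz (r = 0.91), while Nfkbie stood at r = 0.24. These r are descriptions over the same 6 arrays, which share the group labels and the differences in brightness.

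Markers of T cells moved over the arrays as well. The summed signal of the 8 T cell markers with a probe set was 445, 856 and 613 in the arrays labelled knockout, against 949, 524 and 1657 in wild type. It was highest in wild type C, where Tnfaip2, Relb, Rela and the brighter Nfkb2 probe set were highest too. Of these markers 6 passed the filter, and Cd2 and Cd4 did not. Macrophage and dendritic cell markers summed to 1411 to 1898 in the arrays labelled knockout and 1495 to 1638 in wild type. Of these 8 of 10 lay above the filter (Cd163 and Itgam below it), 4 with a difference above 0 and 4 below. Cd14, the brightest of them, gave 10.15, 10.21 and 9.92 in the arrays labelled knockout, against 9.80, 10.45 and 9.19 in wild type. Lyz2 ran otherwise, at 6.04, 8.38 and 7.58 against 7.88, 6.25 and 8.54. Csf1r did so too, at 6.40, 7.90 and 7.44 against 7.66, 6.62 and 8.12. The sum thus hides single genes that varied between wild-type arrays. Endothelial markers, in whose cells Icam1 is known to be induced, summed to 170 to 229 in the arrays labelled knockout and 182 to 223 in wild type, with 3 of 10 above the filter and Cdh5, Cldn5, Emcn, Pecam1, Tek, Tie1 and Vwf below it. B and plasma cell markers summed to 3564, 7025 and 5126 in the arrays labelled knockout, against 7172, 3483 and 5860 in wild type. That sum was highest in wild type A, as were the brightest probe sets of Nfkbia, Nfkbiz and Tnfaip3, and lowest in wild type B. Sums of B and plasma cell, neutrophil, fibroblast, smooth muscle and acinar pancreas markers overlapped between the groups as well. The part of such cells in the values of the members was not tested.

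Genes that act around the members were examined as a list of regulators and a list of targets. The regulator list holds other subunits and IkB proteins, the IKK complex, its adaptors and receptors, and further inhibitors. Of its 44 genes 40 were tested, with 13 above 0 and 27 below, and a median difference of -0.12, against 46.8% of all genes tested below 0 and a median of 0.02. limma called none of them, and 0% of all genes tested. For 3 of them the groups did not overlap with the arrays labelled knockout lower, and for 1 with those higher, against 4.38% and 4.68% of all genes. Birc3, which encodes a ubiquitin ligase of the TNF receptor complex and is itself an NF-kB target, stood at -0.48 (SE 0.22). Bcl3, an atypical nuclear IkB gene, stood at -0.37 (SE 0.17) and gave 8.11, 8.16 and 7.89 in the arrays labelled knockout, against 8.46, 8.37 and 8.45 in wild type. The groups were apart for Bcl3 on this scale and overlapped on the signals as deposited. Tnfrsf1a, the gene of the main TNF receptor, stood at -0.33 and Traf2, an adaptor gene of that receptor, at -0.42. On the upper side Cyld, a deubiquitinase gene that restrains the pathway, stood at 0.24 with no overlap. With arrays centred on their medians the groups overlapped for Cyld. Tax1bp1, which encodes an A20 partner, stood at 0.17, Malt1, a signalling protease gene, at 0.24, and Nkrf, a repressor gene, at 0.39. The limma adjusted p of each of these 8 genes was 0.915. Against wild type B alone Birc3 stood at -0.045, Bcl3 at -0.31, Tnfrsf1a at -0.053 and Traf2 at -0.33, so that Birc3 and Tnfrsf1a came close to 0. On the upper side Cyld stood at 0.18, Tax1bp1 at 0.11 and Malt1 at 0.58 against that array, and Nkrf turned, at -0.37. On the signals as deposited all 4 genes of the lower side turned, Birc3 to 0.021, Bcl3 to 0.12, Tnfrsf1a to 0.19 and Traf2 to 0.0085, below the median of all probe sets in that setting, 0.40.

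The target list holds 36 genes known to be induced by NF-kB, and shares Bcl10 with the regulator list. Of these 28 were tested, 10 above 0 and 18 below, with a median difference of -0.05 and no call. Before adjustment 3 had a p under 0.05, against 3.88% of all genes tested. Tnf, the gene of the cytokine that starts the pathway, gave 5.57, 5.70 and 5.94 in the arrays labelled knockout, against 6.92, 6.15 and 7.21 in wild type. Every array labelled knockout lay below every wild-type array, and the difference was -1.02 (SE 0.29, limma adjusted p = 0.915). It was -0.41 against wild type B alone. The chemokine gene Cxcl1 stood at -0.73 (SE 0.24) and at -0.72 against wild type B, so that its difference did not shrink with that control. The suffix of the Cxcl1 probe set marks possible cross-hybridisation. Ccl20, which encodes a chemokine of the follicle-associated epithelium, stood at -0.46, and Irf1, an interferon regulatory factor gene, at -0.39. Against wild type B alone Ccl20 stood at -0.31 and Irf1 turned, at 0.13, and on the signals as deposited Irf1 turned as well, at 0.063. On the upper side Ccl28, a mucosal chemokine gene, stood at 0.63 (SE 0.23), Cd83 at 0.33, the bacterial lipoprotein receptor gene Tlr2 at 0.36 and Csf1, a macrophage growth factor gene, at 0.22. Against wild type B alone these 4 stood at 0.31, 0.43, 0.82 and 0.23 in the same order. The groups did not overlap for Tnf, Cxcl1 and Ccl20 (lower) or for Ccl28 and Cd83 (higher), 3 and 2 of 28 genes, against 4.38% lower and 4.68% higher of all genes tested. On the signals as deposited the groups overlapped for Tnf, Cxcl1 and Ccl20 and stayed apart for Ccl28 and Cd83. With arrays centred on their medians they overlapped for Ccl20 and Ccl28 and stayed apart for Tnf, Cxcl1 and Cd83.

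**Figure D3:**
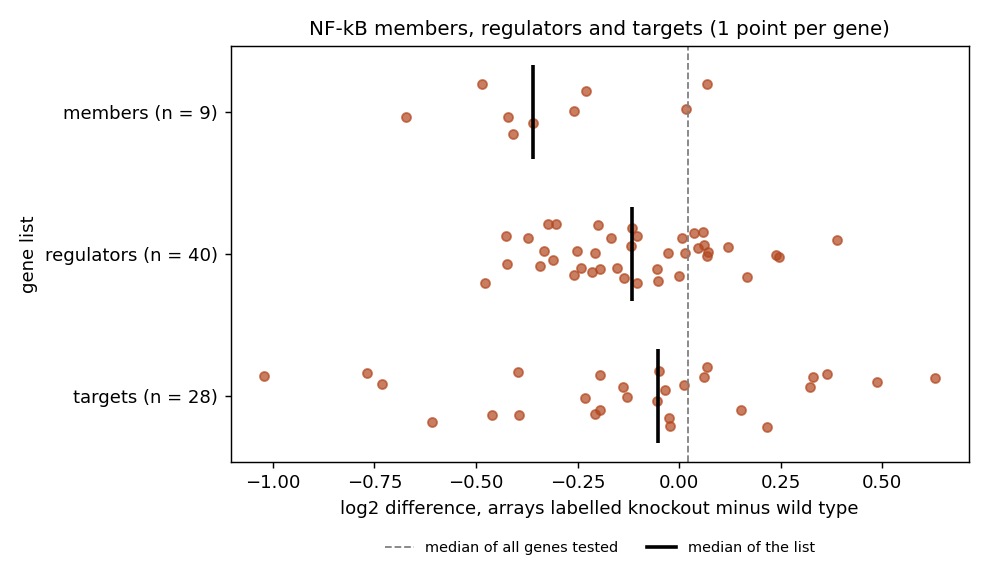
Log2 difference of each gene (1 point per gene, brightest probe set, vertical scatter for legibility) of the members, the regulator list and the target list, with the median of each list as a black line and the median of all genes tested, 0.02, as a dashed line. The medians are -0.36 for the 9 members, -0.12 for the 40 regulators and -0.05 for the 28 targets.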

How the data were processed

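RNA of samples named as intestinal epithelial cells from colonic mucosa was hybridised to 6 Affymetrix 3' arrays, 3 labelled p38a knockout and 3 wild type. The deposited table gives 1 linear intensity per probe set, computed by the authors with MAS5 per the submitters' processing notes; its version, target and scaling: not given in the sources used here. Signals were taken as log2(signal + 16) and quantile normalized over all probe sets, since the trimmed means (2% off each end) differed between arrays. This gives all arrays 1 distribution. Probe sets with a mean below the 40th percentile and 64 control probe sets were left out, which kept 27002. Names came from the platform annotation (34945 probe sets with 1 symbol, 932 with several, 9160 with none here). Groups were compared with limma 3.58.1 in R 4.3.3 (lmFit, eBayes with a trend, 4 residual degrees of freedom, Benjamini-Hochberg over all probe sets). Lists were counted by the brightest probe set of each of 12437 genes; the 10 members were always named, with up to 4 genes a direction of each other list by smallest p, and the 5 genes most correlated with Nfkbia. Members and lists were chosen with earlier results of these data known. The number of arrays limits the precision. The steps were tested on simulated data. Alternatives were 19, covering scaling, pseudocount, filter, 1 probe set per gene, variance prior, array weights, the letter as a replicate block, each array left out, the Gapdh ratio as covariate, and wild type B alone as control. The comparison with single wild-type arrays and the overlap of groups under other scalings were added after seeing the data.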

Additional observations from a re-analysis of the deposited data

How the results depend on the processing

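No member probe set was called under any of the 19 alternatives. Over all probe sets the count of calls was 0, and it was 1 on the signals as deposited, 1 with arrays centred on their medians, 1 with the replicate block, 2 against wild type B alone, 74 with array weights (gene-by-gene method, as the default did not converge) and 0 to 2 with 1 array left out. The letters gave deviations from the group means that correlated at -0.07, -0.16 and 0.43 for A, B and C. Deviations from a group mean depend on each other within the group, so these values cannot decide whether the letters pair the arrays. The unadjusted split was 460 higher against 492 lower, and 4248 against 66 on the signals as deposited, where the median of all probe sets lay at 0.40, and 727 against 290 with arrays centred on their medians, where it lay at 0.16. With array weights 3036 were higher and 2709 lower, and without wild type B 2253 and 2115.

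The median of the 9 members, -0.36, became 0.11 on the signals as deposited, 0.10 with the Gapdh ratio as covariate and 0.19 against wild type B alone. With 1 array left out it ran from -0.56 (without wild type B) to -0.16 (without wild type C). The Gapdh ratio separates the groups without overlap, so the values with it as covariate cannot be cleanly told apart from the group label. The regulator median became 0.31 on the signals as deposited, 0.078 with arrays centred on their medians, 0.027 with the Gapdh ratio and -0.018 against wild type B alone, and ran from -0.20 to -0.044 with 1 array left out. The target median became 0.28 on the signals as deposited, 0.18 with the Gapdh ratio and 0.10 against wild type B alone, and ran from -0.22 (without wild type B) to 0.010 (without the array labelled knockout A).

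Directions of the brightest probe sets turned as follows, and the cause was not tested. On the signals as deposited Nfkbia read 0.11, Nfkbiz 0.0030, Rela 0.16 and Tnfaip3 0.29, all below the median of all probe sets there. With arrays centred on their medians Tnfaip3 read 0.059. With the Gapdh ratio Nfkbia read 0.074, Nfkb2 0.34, Tnfaip3 0.23 and Tnfaip2 0.92. The dimmer probe sets of Nfkb2 and Tnfaip3 read -0.54 and -0.31 there, whereas the other tested ones of Nfkbia and Tnfaip2 read above 0. Against wild type B alone Nfkbia read 0.21, Nfkbiz 0.089, Nfkb2 0.42, Tnfaip3 0.43 and Tnfaip2 0.46. With array weights Nfkbie read -0.034 and Icam1 -0.039. With 1 array left out Nfkbie ran from -0.027 to 0.23, Icam1 from -0.049 to 0.083 and Tnfaip2 from -0.86 to 0.16. Relb ran from -0.87 to -0.13 over all alternatives, with an adjusted p of 0.124 or more. The filter at the 60th percentile left Nfkbie and Icam1 untested.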
